A study of Homo sapiens with 8 samples.

Results

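The comparison set the compound DY131, given to cells without the Esrrb vector, against the Esrrb vector in cells not given the compound. It used 4 of the 8 RNA-Seq libraries of the series, 2 biological replicates per arm: DU145-pc3.1 cells given DY131, and DU145-Esrrb cells left untreated. Members were taken by the labels of the libraries, and genes were kept where at least 2 of the 8 libraries had a level of at least 1 cpm (read counts scaled to library size), which left 13856 of 23391 genes. DU145 cells are an established line from a human prostate cancer. The pool named DU145-Esrrb carries an Esrrb expression vector in pcDNA3.1-zeo, and DU145-pc3.1 carries the same vector empty. Both are pools of stably transfected, zeocin-selected cells and not single clones. The treated cells received 3 μM DY131 in medium with charcoal-stripped serum for a time that is not given in the sources used here. Per the study's methods, cells collected for RNA were also grown in charcoal-stripped serum, while a vehicle for the untreated cells is not given in those sources. The direct comparison changes the cell pool and the treatment together, so the parts of pool and compound cannot be told apart. Untreated DU145-pc3.1 (2 libraries) served as the control for both arms, and DY131-treated DU145-Esrrb (2 libraries) is given beside some results.

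Esrrb is an orphan member of the nuclear receptor family, related to the estrogen receptors but active without estrogen, and is best known for its role in the self-renewal of embryonic stem cells. It binds DNA at a short element, the estrogen related receptor response element, and shares it with its relatives ESRRA and ESRRG. DY131 is a synthetic agonist of Esrrb and Esrrg. The receptor genes are given first.

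ESRRB, listed under NM_004452, separated the pools. In untreated DU145-Esrrb it was at 8.82 and 9.10 cpm (104 and 99 reads), and in DY131-treated DU145-pc3.1 at 0 and 0.0991 cpm (0 and 1 reads). As a share of all counted reads, the 95% Wilson intervals of the DY131 libraries reached up to 0.362 and 0.545 cpm. Over both libraries of a group, the level in DU145-Esrrb was 186 times that in the DY131 libraries, with an exact interval (Clopper-Pearson, 95%) of 33.1 to 7391 that covers counting error only. The control libraries held 3 and 0 reads. ESRRG, the other receptor for which DY131 is known as an agonist, had 0 reads in all 4 libraries compared and in both control libraries. ESRRA, which is known for its part in mitochondrial metabolism, was at 41.6 and 44.1 cpm with Esrrb and at 44.6 and 41.5 cpm with DY131. The direct difference of ESRRA was 0.01 on the log2 scale with a 95% interval of -0.16 to 0.18, so its levels differed by well under the 2-fold threshold used for calls. PPARGC1B, a coactivator of these receptors, rose to 19.0 and 15.3 cpm with DY131 against 5.43 and 5.61 cpm with Esrrb, a log2 difference of 1.64 ± 0.36 at the 95% level. PPARGC1B and ESRRB, the gene on the vector, were the called members among the 11 tested receptor and cofactor genes (18.2%, against 5.49% of all genes), whose median difference was 0.12.

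The 4 libraries held between 10393389 and 11551690 reads on genes. The DY131 replicates lay farther apart than those of any other group. Their chi-square per degree of freedom over genes was 7.10, against 1.80 for DU145-Esrrb and 2.60 for the control, and Spearman's correlation over genes was 0.9935 between them and 0.9973 between the DU145-Esrrb replicates. This correlation averaged 0.9792 between DY131 and Esrrb libraries, 0.9827 between DY131 and control libraries and 0.9935 between Esrrb and control libraries. The 5 epithelial marker genes summed to 2501 to 3163 cpm over all 8 libraries, while the prostate luminal genes KLK2 and KLK3 were at 0 in all 8 libraries. The leukocyte gene CD3E and the fibroblast gene DCN were at 0 as well, and the 4 endothelial markers summed to at most 1.29 cpm. In the combined libraries, the log2 ratio to untreated DU145-Esrrb ran with the share of a transcript's 50-base windows that cross an exon junction, with a Spearman correlation of -0.377 across genes, while for DY131 alone over Esrrb alone it was 0.027. Levels in the combined libraries are given with that limit, and its part in them was not tested.

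In the direct comparison, 761 of 13856 genes were called, which is 5.49% of the genes tested. Calls rest on the quasi-likelihood test of edgeR, with an adjusted p below 0.05 and at least 2-fold between the arms, which is 1 on the log2 scale. In bulk RNA, fewer cells with a transcript and less of it per cell cannot be told apart. DY131 alone left 240 genes (1.73%) higher and 521 (3.76%) lower than Esrrb alone. The groups' libraries did not overlap for any of the 761, as was the case for 69.1% of all genes tested. By adjusted p alone, 5959 genes (43.0%) differed, 3040 higher and 2919 lower, and the median difference over all genes was -0.0009. Differences of at least 4-fold were found for 99 called genes, 26 higher and 73 lower. The higher group was under 5 cpm for 363 of the 761 genes. Genes called lower had shorter transcripts (median 2304 bases) of higher GC content (55.7%) than genes called higher (3261 bases, 50%) or all tested genes (2823 bases, 49.5%). With a correction for length and GC content, 708 genes were called, 247 higher and 461 lower, and 660 of them were among the 761.

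**Figure D1:**
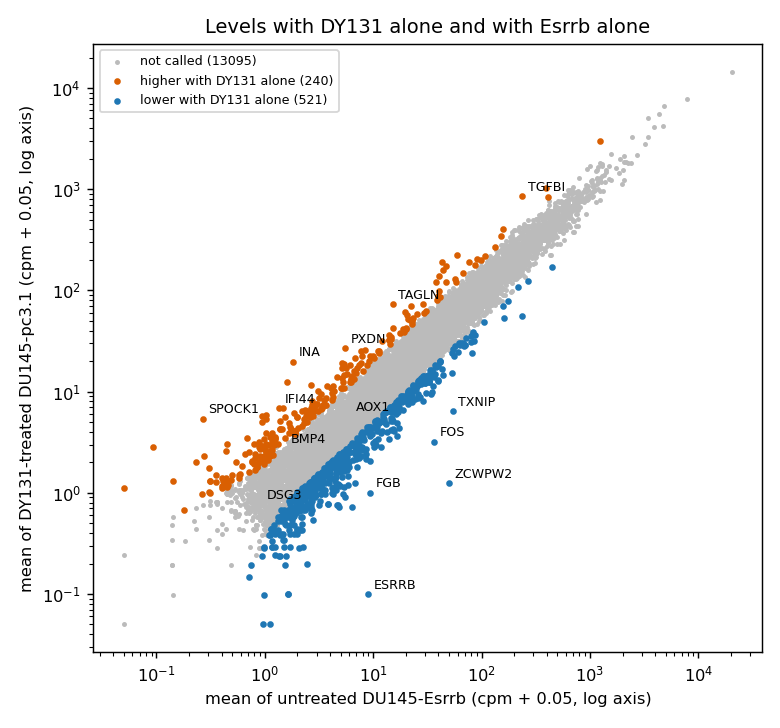
Mean level of each tested gene in untreated DU145-Esrrb (x axis) and in DY131-treated DU145-pc3.1 (y axis), both in cpm plus 0.05 on log axes, with the 240 genes called higher with DY131 in orange, the 521 called lower in blue and all others in grey. ESRRB, ZCWPW2, FOS and TXNIP lie far below the diagonal and SPOCK1 and INA far above it, while AOX1 and DSG3 lie within the grey band.

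The control means did not enter the contrast, and they show which arm lay nearer to the untreated control pool. For 624 of the 761 called genes (82.0%) the control mean was nearer to Esrrb alone, against 70.4% of all tested genes, and for 596 (78.3%, against 48.7%) it lay between the arms. Called genes were picked for a gap of at least 2-fold between the arms, which most tested genes lack. The shares over all tested genes are therefore not a like baseline, and no excess is read from them. Among the 521 genes lower with DY131, the control was nearer to Esrrb for 464 and nearer to DY131 for 57. Among the 240 higher genes, these counts were 160 and 80. Against the control, Esrrb alone called 80 genes (0.577%), 25 higher (0.180%) and 55 lower (0.397%), and DY131 alone called 580 (4.19%), 142 higher (1.02%) and 438 lower (3.16%). Both comparisons share the control libraries. By adjusted p alone they gave 578 (4.17%) and 5185 (37.4%) genes. Of the 761 genes, 408 were called with DY131 only, 37 with Esrrb only, 5 with both and 311 with neither. The study reported that DY131 without Esrrb altered no gene. Here edgeR's exact test, which the study used, gave 601 genes for DY131 against the control. The cause of this difference from the study was not tested.

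Both arms called 22 genes against the control in the same direction, 6 higher and 16 lower, which is 0.159% of the genes tested and is given as a count, since both comparisons use the same control libraries. The control means do not enter the direct difference, although the control libraries share in the estimate of the spread that sets its interval. For 7 genes (0.0505% of all tested) the 95% interval of the direct difference lay within 1 on the log2 scale, that is, within 2-fold. These genes are described as brought to the same level. For another 2 genes the levels differed, and for the remaining 13 the interval reached past 1 without a call. Over all tested genes the interval lay within 1 for 80.2%, so the 7 of 22 are read against that share.

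AOX1, the aldehyde oxidase that oxidises aldehydes and many nitrogen heterocycles, was the most abundant of the 7 in the control. Its position (NM_001159, GENCODE 29 on GRCh38) is chromosome 2, 200585868 to 200677064, plus strand. It was at 64.2 and 72.4 cpm in the control, at 5.43 and 6.80 cpm with Esrrb and at 3.74 and 7.43 cpm with DY131. The libraries of the arms overlapped, and all 4 lay below both control libraries. Against the control the log2 difference was -3.48 with Esrrb and -3.62 with DY131, and between the arms it was -0.14 with a 95% interval of -0.66 to 0.39. The DY131 replicates were the less alike of the arms. Leaving out each library in turn moved the direct difference between -0.70 and 0.30, the lowest without DY131 replicate 2 and the highest without DY131 replicate 1. The combined libraries were at 4.69 and 4.18 cpm.

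The other 6 genes at the same level were less abundant than AOX1 in the control, though PADI2 and TKTL1 had higher means than AOX1 in both arms. PADI2, a peptidylarginine deiminase that turns arginine in proteins into citrulline, was at 20.2 and 21.3 cpm in the control, at 10.4 and 9.74 cpm with Esrrb and at 8.12 and 11 cpm with DY131. Its direct difference was -0.08 (95% interval -0.42 to 0.26), and it was the one gene of the 22 whose interval stayed within 0.5, as did the interval of 47.2% of all genes. TKTL1, a transketolase-like protein, rose from 3.05 and 2.20 cpm in the control to 9.50 and 10.1 cpm with Esrrb and to 7.10 and 6.64 cpm with DY131. Here the Esrrb libraries were both above the DY131 libraries, with a difference of -0.51 (-0.88 to -0.15) and an adjusted p of 0.0246, so the levels lay within 2-fold but were not equal. RARRES3, a phospholipase first found as a retinoid-responsive gene, fell from 9.82 and 7.83 cpm to 4.92 and 3.40 cpm with Esrrb and to 2.43 and 4.16 cpm with DY131. DUOXA1, the maturation factor of a hydrogen peroxide-producing oxidase, rose from 0.667 and 0.704 cpm to 2.46 and 1.84 cpm with Esrrb and to 1.49 and 2.48 cpm with DY131. SH3RF3 rose from 1.14 cpm in both control libraries to 3.56 and 2.66 cpm with Esrrb and to 2.89 and 2.48 cpm with DY131. UNC5A, a netrin receptor, fell from 4.39 and 4.84 cpm to 1.70 and 2.11 cpm with Esrrb and to 1.49 and 3.07 cpm with DY131, and its interval only just stayed within 1.

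How firmly the 7 genes hold depends on the gene. The description was tried under 13 other settings of scaling, filter, libraries and model, all with the quasi-likelihood fit. AOX1 and TKTL1 met the description in 12 each and PADI2 in 11. AOX1 did not meet it without DY131 replicate 2, nor TKTL1 without DU145-Esrrb replicate 1. SH3RF3 met it in 8, RARRES3 in 6, DUOXA1 in 5 and UNC5A in 3. With 1 library left out, 2 to 7 genes met it, and the smallest count came without DU145-Esrrb replicate 2.

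**Figure D2:**
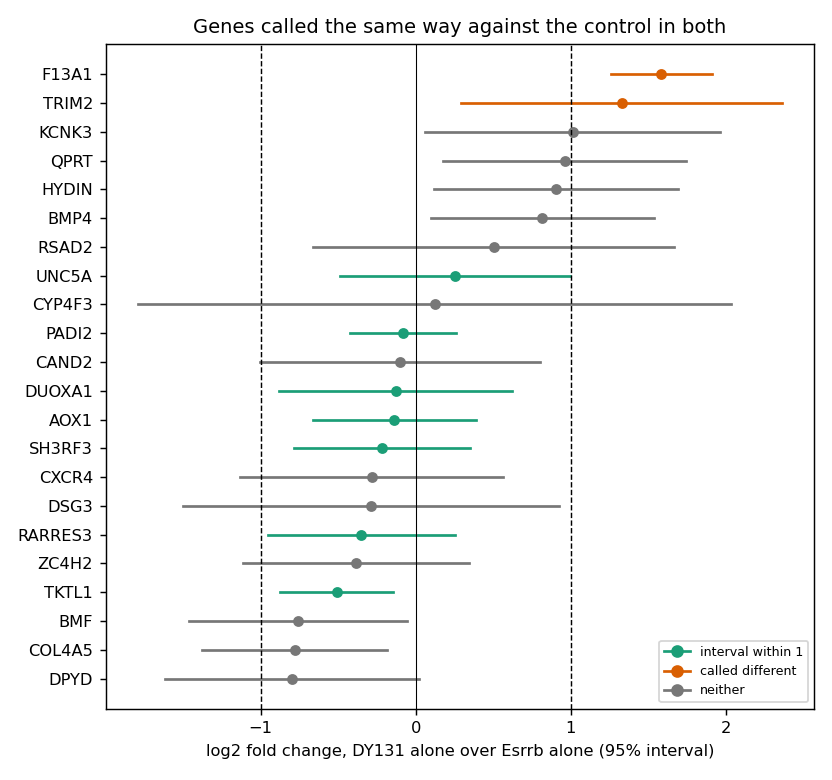
Direct log2 difference, DY131 alone over Esrrb alone, with its 95% interval (x axis) for the 22 genes called in the same direction against the control in both arms (y axis). The 7 green intervals lie between the dashed lines at -1 and 1, TRIM2 and F13A1 in orange are called higher with DY131, and the 13 grey intervals cross a dashed line without a call.

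DSG3 and BMP4 were among the 13 genes that neither met the description nor were called. DSG3 (NM_001944, chromosome 18 of GRCh38, 31447795 to 31478702) encodes desmoglein 3, a cadherin of the desmosomes that hold epithelial cells together. It fell from 34.9 and 47.9 cpm in the control to 0.933 and 0.827 cpm with Esrrb and to 1.03 and 0.396 cpm with DY131. Both arms were far below the control, by -5.54 and -5.82 on the log2 scale, and the libraries of the arms overlapped. With 4 to 11 reads left per library, the direct difference of -0.29 had an interval of -1.50 to 0.92, so a difference of 2-fold between the arms could not be told from none at this depth. BMP4 (NM_001202, chromosome 14 of GRCh38, 53949736 to 53958761), a secreted ligand of the bone morphogenetic protein family, was at 9.25 and 8.89 cpm in the control. It was at 1.78 and 1.19 cpm with Esrrb and at 1.96 and 3.37 cpm with DY131. The libraries of the arms did not overlap, and the direct difference of 0.82 (0.10 to 1.54) missed the threshold with an adjusted p of 0.0588. Without DY131 replicate 1 it was 1.17, which was called, and without DY131 replicate 2 it was 0.39.

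Of the other 11 genes in between, ZC4H2, COL4A5 and CAND2 rose in both arms against the control. ZC4H2 was at 0.0953 and 0.176 cpm in the control, at 2.29 and 2.11 cpm with Esrrb and at 1.21 and 2.18 cpm with DY131. COL4A5, a chain of the type IV collagen of basement membranes, was at 0.953 and 0.616 cpm, at 6.36 and 4.50 cpm and at 3.83 and 2.48 cpm in the same order. The Esrrb libraries of COL4A5 were both above the DY131 libraries, by 0.78 on the log2 scale (0.18 to 1.38). BMF, a pro-apoptotic relative of BCL2, fell from 21.1 and 13.3 cpm to 10.3 and 4.96 cpm with Esrrb and to 5.32 and 3.77 cpm with DY131. CXCR4, the receptor of the chemokine CXCL12, fell from 5.43 and 4.31 cpm to 2.71 and 1.10 cpm with Esrrb and to 1.40 and 1.78 cpm with DY131. DPYD, which starts the breakdown of pyrimidines, fell from 3.81 and 4.22 cpm to 1.61 and 1.93 cpm with Esrrb and to 0.934 and 1.09 cpm with DY131. QPRT, HYDIN, KCNK3, RSAD2 and CYP4F3 fell in both arms from control means of 1.37 to 5.28 cpm, and 61.2% of the 50-base windows of HYDIN are shared with other genes, so its counts are uncertain.

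F13A1 and TRIM2 fell in both arms but to different levels. F13A1, the catalytic subunit of coagulation factor XIII, was at 39.5 and 38.6 cpm in the control, at 6.62 and 5.51 cpm with Esrrb and at 16.3 and 20.2 cpm with DY131. The groups did not overlap, and F13A1 was 1.58 higher on the log2 scale with DY131 than with Esrrb (1.26 to 1.91, adjusted p = 9.62e-07). The combined libraries, at 16.2 and 17.2 cpm, were at the level of DY131 alone. TRIM2, an E3 ubiquitin ligase, was at 7.53 and 5.63 cpm, at 0.509 and 0.551 cpm and at 1.12 and 1.59 cpm. Its direct difference of 1.33 (adjusted p = 0.0297) lost the call with DESeq2, without either DU145-Esrrb library and without DY131 replicate 2.

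Opposite directions against the control were called for 3 genes, all 3 of them also called in the direct comparison. FGB, the beta chain of fibrinogen, was at 2.38 cpm in both control libraries, rose to 9.24 and 9.28 cpm with Esrrb and fell to 1.21 and 0.694 cpm with DY131. The direct difference was -3.25 (-3.91 to -2.60, adjusted p = 1.33e-07). INA, the neuronal intermediate filament alpha-internexin, went the other way. It was at 4.58 and 3.43 cpm in the control, at 1.61 and 1.93 cpm with Esrrb and at 19.0 and 20.5 cpm with DY131, a direct difference of 3.48 (2.98 to 3.97). TAGLN, the actin-binding protein transgelin, was at 35.4 and 33.4 cpm, at 16.3 and 14.1 cpm and at 56.4 and 89.8 cpm, a direct difference of 2.26 (1.88 to 2.64). The DY131 replicates of TAGLN lay far apart but both above the control. The combined libraries were at 18.4 and 17.2 cpm for FGB, at 3.26 and 2.94 cpm for INA and at 57.6 and 61.7 cpm for TAGLN.

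**Figure D3:**
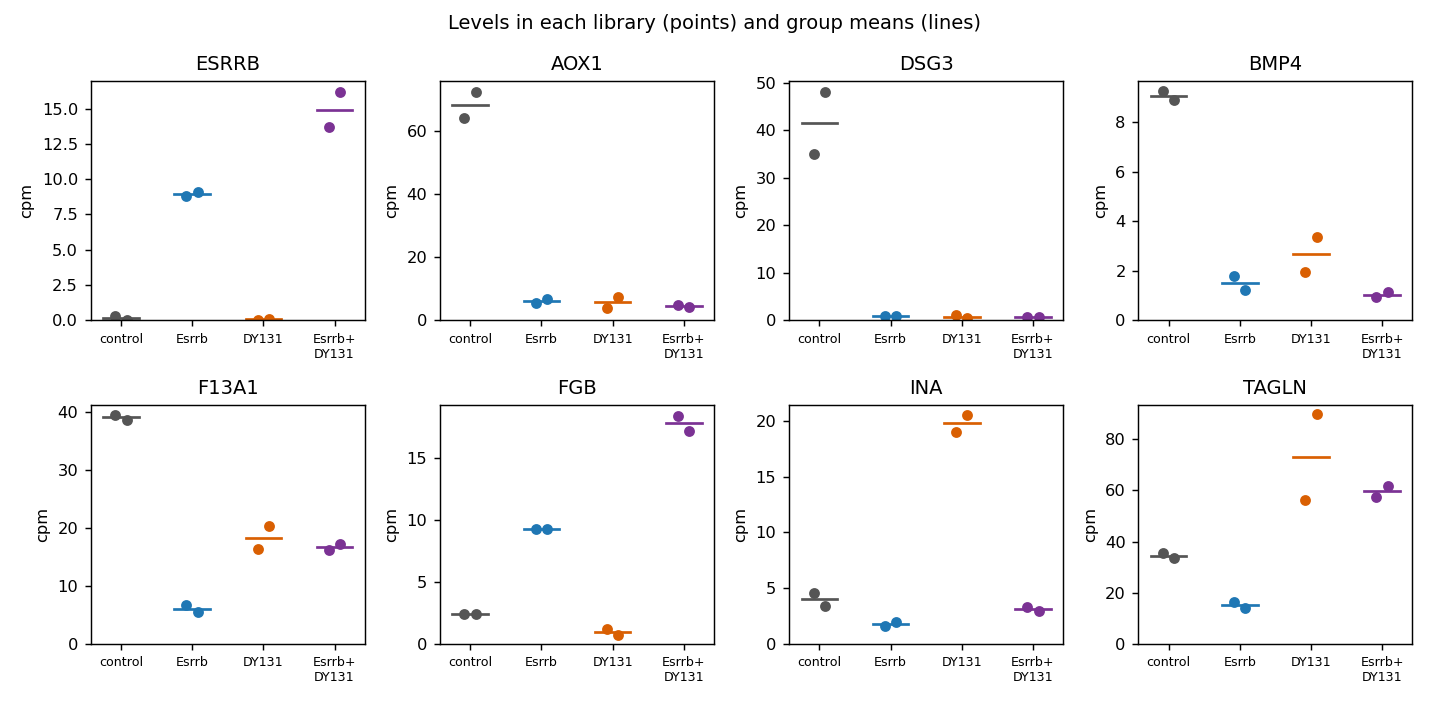
Level in cpm (y axes, linear from 0) of ESRRB, AOX1, DSG3, BMP4, F13A1, FGB, INA and TAGLN in the control, Esrrb, DY131 and combined groups (x axes), with 1 point per library and a line at the group mean. AOX1 and DSG3 drop far below the control in both arms, F13A1 stops at 16.3 and 20.2 cpm with DY131, and FGB, INA and TAGLN lie on opposite sides of the control.

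Of the 80 genes that Esrrb alone called against the control, 42 were called in the direct comparison and 9 had an interval within 1. ZCWPW2, a zinc finger and PWWP domain protein, rose from 1.53 and 1.14 cpm in the control to 51.9 and 47.4 cpm with Esrrb and was at 1.49 and 0.892 cpm with DY131. After ESRRB itself it was the gene most reduced by the direct measure among those with at least 5 cpm in the higher group, at -5.36 (-5.95 to -4.76), and 32.2% of its windows are shared with other genes. PXDN, the basement membrane enzyme peroxidasin, was at 40.8 and 34.9 cpm in the control, at 5.0 and 5.97 cpm with Esrrb and at 25.4 and 28.2 cpm with DY131, a direct difference of 2.29 (1.95 to 2.63). IGFBP3, a binding protein of insulin-like growth factors, was at 106 and 108 cpm, at 42.3 and 44.1 cpm and at 185 and 195 cpm, a direct difference of 2.14. ARSD, an arylsulfatase, was at 3.72 and 3.96 cpm, at 0.763 and 1.01 cpm and at 3.92 and 7.43 cpm. HOXB8, a homeobox gene of the body axis, was at 9.63 and 7.74 cpm in the control, at 15.8 and 18.5 cpm with Esrrb and at 4.39 and 4.26 cpm with DY131. HOXB8 was called in neither comparison with the control at the 2-fold threshold, and the direct difference was -1.98 (-2.35 to -1.61).

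Several of the largest falls were in genes at which Esrrb alone lay near the control. FOS, a subunit of the AP-1 transcription factor that is induced within minutes by growth factors, was at 43.4 and 29.7 cpm with Esrrb, at 39.9 and 25.2 cpm in the control and at 3.55 and 2.77 cpm with DY131. EGR1, another immediate early transcription factor, was at 242 and 227 cpm with Esrrb, at 259 and 254 cpm in the control and at 73.8 and 37.2 cpm with DY131. The direct differences were -3.53 for FOS and -2.07 for EGR1. TXNIP, the inhibitor of thioredoxin that follows glucose supply, was at 70.7 and 37.5 cpm with Esrrb, at 79.8 and 54.6 cpm in the control and at 6.44 and 6.34 cpm with DY131. DBP, a transcription factor of the circadian clock output, was at 7.46 and 3.40 cpm with Esrrb and at 1.12 and 0.595 cpm with DY131. NFE2, OOEP, DICER1-AS1 and TNNI3 completed the 10 largest falls, with differences from -3.22 to -2.31. For FOS, TXNIP and NFE2 the replicates of untreated cells also differed from each other, in the control as in DU145-Esrrb. For DBP those of DU145-Esrrb lay far apart, while the control was at 6.10 and 5.01 cpm. For each of these genes, every DY131 library was below all 4 libraries of untreated cells. Counts on TNNI3 are uncertain, since 48.7% of its windows occur in other genes, and those on DICER1-AS1 could hold reads of its antisense neighbour, because the use of strand in the counting is not given in the sources used here.

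SPOCK1, a secreted proteoglycan, showed the largest rise with DY131 among genes with at least 5 cpm in the higher group. It was at 0.254 and 0.184 cpm with Esrrb, at 0.477 and 0.440 cpm in the control and at 4.76 and 5.95 cpm with DY131, a difference of 4.52 (3.11 to 5.94). ESRP1, a splicing regulator of epithelial cells, was at 1.61 and 1.47 cpm with Esrrb, at 3.81 and 2.99 cpm in the control and at 8.78 and 16.2 cpm with DY131. IVL, the cornified envelope protein involucrin, was at 0.679 and 1.29 cpm with Esrrb and at 6.07 and 5.45 cpm with DY131. NOG, the secreted BMP inhibitor noggin, was at 1.27 and 1.56 cpm with Esrrb and at 7.28 and 6.54 cpm with DY131, and the zinc finger gene ZNF300 was at 0.763 and 1.19 cpm and at 5.32 and 5.35 cpm. For these 5 genes both DY131 libraries were above every Esrrb and control library. In the combined libraries SPOCK1 was at 0 and 0.226 cpm, ESRP1 at 0.391 and 0.113 cpm and ZNF300 at 0.782 and 0.904 cpm. There, IVL was at 1.82 and 2.37 cpm and NOG at 3.26 and 2.82 cpm. All 5 were thus below both libraries of DY131 alone, with the limit stated above for the combined libraries.

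Among abundant transcripts, 30 called genes had at least 100 cpm in the higher arm, a bound set after their values were seen, and 22 of these were higher with DY131. Of all 761 called genes, 240 were higher. Tested genes above this bound were not counted, so the share called among them cannot be given. With scaling to library size alone, BIRC2, NDST1, THBS1, NPM1 and TCOF1 lost the call, at 0.959 to 0.996. With the length and GC correction, the higher genes BDP1, BIRC2, NDST1 and THBS1 lost it, as did the lower genes ASNS, BCAM and MTSS1L. HSPA8, the constitutive chaperone of the HSP70 family, was at 1208 and 1267 cpm with Esrrb and at 2768 and 3240 cpm with DY131, a difference of 1.28 (1.13 to 1.43). TFRC, the transferrin receptor that takes up iron, was at 372 and 411 cpm and at 1034 and 1042 cpm, a difference of 1.41 (1.28 to 1.53). TGFBI, an extracellular matrix protein induced by TGF-beta, was at 236 and 240 cpm and at 835 and 860 cpm, with the control at 453 and 436 cpm, and its difference was 1.83. ITGA2, the collagen-binding integrin chain, was at 44.4 and 43.9 cpm with Esrrb and at 174 and 146 cpm with DY131. Of the 8 abundant genes that were lower, ALDH3B1, an aldehyde dehydrogenase, was at 180 and 145 cpm with Esrrb and at 50.6 and 55.4 cpm with DY131. DDIT4, an inhibitor of mTORC1 signalling, was at 447 and 444 cpm and at 164 and 180 cpm. CITED2, a transcriptional coregulator, was at 162 and 152 cpm and at 69.9 and 69.2 cpm. TGFB1 and CDKN1A, both measured in the study by qPCR, differed by less than 2-fold. TGFB1 was at 113 and 119 cpm with Esrrb and 96.7 and 80.3 cpm with DY131, and CDKN1A, the cell cycle inhibitor p21, was at 56.1 and 51.2 cpm and at 87.4 and 70.8 cpm.

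Interferon-induced genes were the list with the highest share of calls among lists of 10 or more tested members. Of 37 tested members, 12 were called higher with DY131 than with Esrrb and 1 lower, 35.1% against 5.49% of all genes, and the median difference was 0.50 against -0.0009. Against the control, Esrrb alone called 0 higher and 10 lower, where 0.180% and 0.397% of all genes were called. DY131 alone called 0 higher and 2 lower, where 1.02% and 3.16% of all genes were called. IFIT3, an antiviral protein that binds viral RNA together with IFIT1, was at 65.9 and 52.2 cpm in the control, at 19.8 and 19.1 cpm with Esrrb and at 49.4 and 71.7 cpm with DY131. Its direct difference was 1.63 (1.30 to 1.96), while DY131 alone differed from the control by 0.04. IFI44 was at 7.44 and 5.37 cpm in the control, at 0.679 and 1.93 cpm with Esrrb and at 5.6 and 8.03 cpm with DY131. ISG15, a ubiquitin-like modifier, was at 50.8 and 38.4 cpm, at 22.0 and 24.0 cpm and at 41.6 and 58.3 cpm. IFIT1 was at 38.5 and 31.6 cpm, at 19.8 and 17.7 cpm and at 32.7 and 50.5 cpm, and OAS3, which makes the 2-5A signal that activates RNase L, was at 86.7 and 72.0 cpm, at 45.5 and 48.5 cpm and at 102 and 143 cpm. DY131 replicate 2 was above replicate 1 for each of these genes. DDX60, SAMD9, IFIT2, IFI6, MX1, XAF1 and SAMD9L completed the 12 called members. XAF1 and SAMD9L, at under 2 cpm with DY131, had no adjusted p with DESeq2 and so were not called there. Their log2 differences with DESeq2 were 2.26 and 1.99.

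Other members of the list went another way. IFITM2, a membrane protein that restricts virus entry, was lower with DY131, at 30.7 and 39.3 cpm against 80.1 and 78.6 cpm. RSAD2 fell in both arms, from 1.81 and 2.02 cpm to 0.509 and 0.643 cpm with Esrrb and to 0.560 and 1.09 cpm with DY131. Leaving out DY131 replicate 2 lowered the number of called members from 13 to 7, and leaving out replicate 1 raised it to 16. The part of this difference between the replicates in the list's calls was not tested.

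**Figure D4:**
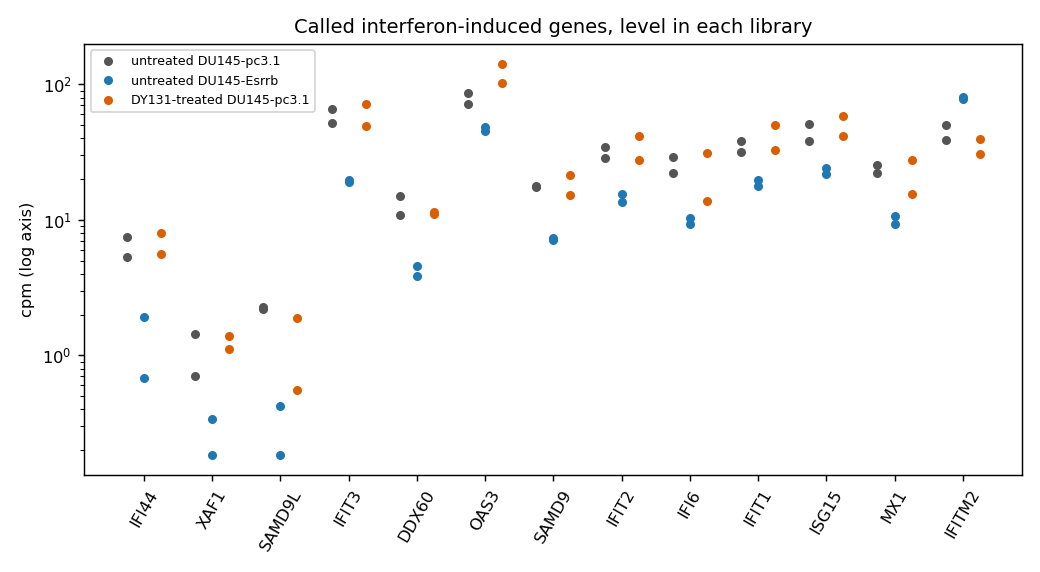
Level in cpm (y axis, log scale) of the 13 called interferon-induced genes (x axis) in the control, Esrrb alone and DY131 alone, with 1 point per library. For the 12 genes called higher with DY131, the Esrrb points lie below the DY131 points, and the order is turned for IFITM2.

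Promoters of these genes are shown because the interferon-stimulated response element, bound by IRF factors, is the sequence the list is known for. Of the 12 called higher, 11 had a promoter in the RefSeq table of GRCh38.p14 (250 bases before to 50 after the start). The letters GAAA, any 2 bases and GAAA again (TTTC, any 2 bases and TTTC on the other strand, both searched, overlaps allowed) occurred in 9 of the 11 (81.8%). They occurred in 9 of 18 (50%) of the list's other members with a promoter, in 2.67% of the tested genes and in 3.65% of all 27305 promoters. Of all genes called higher with DY131, 16 of 153 (10.5%) held them, and of those called lower 9 of 320 (2.81%). The 16 include the 9 interferon-induced genes just counted, so the share of 10.5% is not separate from theirs. Below are the 250 bases before the start of IFIT1 (chr10:89392373-89392622, plus strand), IFIT3 (chr10:89327747-89327996, plus strand), ISG15 (chr1:1013247-1013496, plus strand) and IFI44 (chr1:78649539-78649788, plus strand), with matches in capitals. A match is a description of the letters and not a measured binding site.
IFIT1: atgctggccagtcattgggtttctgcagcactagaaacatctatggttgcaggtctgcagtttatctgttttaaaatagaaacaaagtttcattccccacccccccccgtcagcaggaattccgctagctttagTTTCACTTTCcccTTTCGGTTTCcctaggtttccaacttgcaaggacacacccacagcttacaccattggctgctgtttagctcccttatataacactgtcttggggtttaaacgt
IFIT3: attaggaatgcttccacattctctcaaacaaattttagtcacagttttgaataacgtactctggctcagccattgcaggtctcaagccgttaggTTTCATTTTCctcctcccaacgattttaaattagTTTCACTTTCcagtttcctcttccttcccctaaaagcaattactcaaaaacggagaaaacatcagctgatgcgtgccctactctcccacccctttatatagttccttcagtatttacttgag
ISG15: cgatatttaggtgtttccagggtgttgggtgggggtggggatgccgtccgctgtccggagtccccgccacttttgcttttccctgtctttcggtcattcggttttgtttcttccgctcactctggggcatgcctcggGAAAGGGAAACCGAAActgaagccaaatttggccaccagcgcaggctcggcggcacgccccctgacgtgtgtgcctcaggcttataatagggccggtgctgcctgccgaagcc
IFI44: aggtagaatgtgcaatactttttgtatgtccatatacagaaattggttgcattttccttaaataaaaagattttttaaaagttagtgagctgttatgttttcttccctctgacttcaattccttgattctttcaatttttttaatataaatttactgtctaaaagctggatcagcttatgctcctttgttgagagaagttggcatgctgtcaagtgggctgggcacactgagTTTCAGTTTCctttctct

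IFIT1 and IFIT3 each held 2 matches on the minus strand, ISG15 held 2 overlapping matches on the plus strand and IFI44 held 1 on the minus strand. The letters TNAAGGTCA (TGACCTTNA on the other strand), a form of the estrogen related receptor response element, occurred in 0 of 153 promoters of genes called higher with DY131 and in 2 of 320 (0.625%) of those called lower. They occurred in 0 of 55 promoters of genes that Esrrb alone called against the control, in 0.498% of tested genes and in 0.963% of all promoters. No match says only that these letters are not in this window.

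Antigen presentation genes of HLA class I, of which many are also interferon-induced, had 2 of 11 tested members called (18.2%, against 5.49% of all genes), both higher with DY131 (1.73% of all genes). ERAP2, a peptidase that trims antigens in the endoplasmic reticulum, was at 86.0 and 82.3 cpm in the control, at 40.4 and 40.8 cpm with Esrrb and at 88.0 and 109 cpm with DY131, a direct difference of 1.28 (1.08 to 1.47). TAP2, a subunit of the peptide transporter, was called from levels of 0.827 to 2.43 cpm and lost the call with DESeq2, without either DU145-Esrrb library and without DY131 replicate 1. Of its windows, 35.6% occur in other genes, so its counts are uncertain. B2M, the light chain of all class I molecules, was at 760 and 748 cpm with Esrrb and at 608 and 803 cpm with DY131, with a difference of -0.10 (-0.29 to 0.10).

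Of the BMP ligands, ID genes and inhibitors, 4 of 22 tested members were called (18.2%, against 5.49% of all genes), all higher with DY131 (1.73% of all genes), and the median difference was 0.25. BMP7 was at 0.254 and 1.01 cpm with Esrrb, at 1.24 and 1.23 cpm in the control and at 3.27 and 3.57 cpm with DY131. The inhibitors NOG and SMAD7 were both higher, SMAD7 at 16.7 and 17.1 cpm with DY131 against 7.12 and 6.98 cpm with Esrrb. ID2, an inhibitor of helix-loop-helix factors that BMP signals induce, was at 31.1 and 33.6 cpm against 11.7 and 16 cpm. ID1, of the same family, was at 144 and 169 cpm with DY131 against 218 and 227 cpm with Esrrb, a difference of -0.51 (-0.66 to -0.36).

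For the lists of cell adhesion and shape, the shares called stand beside the 5.49% called over all genes. In the desmosome list, 0 of 11 tested members were called in the direct comparison by edgeR's quasi-likelihood test, by its exact test or by DESeq2. At an unadjusted p under 0.05 there were 5, and the same number passed the adjusted p alone, all higher with DY131. PKP1, a desmosomal plaque protein, was at 9.33 and 9.74 cpm with Esrrb and at 17.6 and 18.7 cpm with DY131, and DSP, desmoplakin, was at 87.9 and 85.2 cpm and at 126 and 117 cpm. Of 9 tested keratins, KRT4 was called (11.1%), at 4.33 and 4.32 cpm with Esrrb and at 0.840 and 1.19 cpm with DY131, while KRT8 differed by 0.05, with uncertain counts, since 41.3% of its windows occur in other genes. Of 20 tested basement membrane genes, 2 (10%) were called higher, PXDN among them. COL4A1 and COL4A2, which are transcribed from a shared promoter region, were at 37.7 and 34.6 cpm and at 88.5 and 91.3 cpm with Esrrb and at 67.5 and 61.8 cpm and at 157 and 150 cpm with DY131. Of 19 tested regulators and markers of the epithelial-mesenchymal transition, 4 were called (21.1%). The epithelial genes ESRP1, OVOL2 and CLDN1 were higher with DY131 and S100A4 was lower. The call of OVOL2 was lost with DESeq2. VIM, the mesenchymal filament vimentin, was at 1522 and 1598 cpm with Esrrb and at 2291 and 2121 cpm with DY131, a difference of 0.50. Contractile genes driven by SRF and YAP held 3 calls among 23 (13%), with TAGLN and TPM1 higher and ACTA2, at under 2 cpm, lower. ACTA2 was not called with DESeq2.

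The integrated stress response, the program by which ATF4 raises amino acid synthesis and transport when translation is slowed, held more lower than higher members with DY131. Of 33 tested members, 6 were called (18.2%, against 5.49% of all genes), all lower (3.76% of all genes), and the median difference was -0.48. By adjusted p alone 26 were lower and 3 higher, where 21.1% of all genes were lower and 21.9% higher. Against the control the median was -0.15 with Esrrb and -0.66 with DY131. DY131 alone called 9 of the 33 members lower than the control, where 3.16% of all genes were called lower. NUPR1, a stress-induced nuclear protein, was at 6.19 and 3.40 cpm with Esrrb and at 0.467 and 0.892 cpm with DY131. CHAC1, which degrades glutathione, was at 31.3 and 34.0 cpm and at 13.6 and 11.1 cpm, and PCK2, the mitochondrial phosphoenolpyruvate carboxykinase, was at 36.5 and 38.3 cpm and at 15.4 and 14.1 cpm. CTH, of cysteine synthesis, was at 7.29 and 8.09 cpm and at 3.83 and 3.77 cpm, and DDIT4 is given above. The serine synthesis genes PHGDH and PSAT1 were lower by 0.94 and 0.84 and so were not called. ASNS, asparagine synthetase, was called at -1.0 but shares 97.3% of its windows with other gene entries and is uncertain. The cytosolic aminoacyl-tRNA synthetases, many of which ATF4 also induces, had a median of -0.02, with AARS at 707 and 700 cpm with Esrrb and 396 and 356 cpm with DY131, and HARS the other way at 39.2 and 39.0 cpm and 79.1 and 82.1 cpm.

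Cholesterol and fatty acid synthesis had 1 of 32 tested members called (3.12%, below the 5.49% of all genes), TM7SF2, a sterol reductase, at 45.8 and 42.6 cpm with Esrrb and at 13.4 and 16 cpm with DY131. By adjusted p alone 22 members were lower and 1 higher, against 21.1% and 21.9% of all genes, and the median was -0.42. SCD, which puts the double bond into fatty acids, was at 2057 and 1916 cpm with Esrrb and at 1023 and 1243 cpm with DY131. INSIG1, a sterol sensor of the endoplasmic reticulum, was at 138 and 125 cpm and at 65.4 and 76.7 cpm. Both were lower in every DY131 library than in any Esrrb or control library, without reaching the fold threshold.

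Replication and mitosis genes that passed the adjusted p were higher with DY131, mostly by less than 2-fold. Of 42 tested genes of G1/S and DNA replication, 27 were higher with DY131 by adjusted p alone and 0 lower, with a median of 0.27 and 1 call (2.38%), and of 34 genes of G2/M and mitosis, 21 were higher and 0 lower, with a median of 0.22. Of these 34, 23 had an unadjusted p under 0.05 and 0 were called by edgeR's quasi-likelihood or exact test or by DESeq2. Over all genes, 21.9% were higher and 21.1% lower by that rule. CCNE2, a G1/S cyclin, was at 20.9 and 25 cpm with Esrrb and at 42.5 and 51.3 cpm with DY131, a difference of 1.03. CLSPN, a replication checkpoint protein, was at 47.3 and 52.5 cpm and at 95.2 and 97.9 cpm, and CENPE, the kinetochore motor, was at 71.3 and 82.1 cpm and at 140 and 155 cpm. Of the CDK inhibitors and D cyclins, 0 of 12 were called by edgeR's quasi-likelihood or exact test or by DESeq2, 11 had an unadjusted p under 0.05, and 5 were higher and 5 lower by adjusted p alone. CCND1, the cyclin D1 gene, was at 402 and 429 cpm with Esrrb and at 653 and 734 cpm with DY131.

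Of 38 tested mitochondrial genes known as targets of the estrogen related receptors, 1 was called (2.63%, against 5.49% of all genes), and 37 had an interval within 1, as had 80.2% of all genes. By adjusted p alone 8 were higher and 10 lower, near the 43.0% of all genes that differed by this rule, and the median was -0.05. PDK4, a kinase that turns off pyruvate oxidation, was the called gene, at 5.26 and 5.51 cpm with Esrrb, 4.86 and 6.16 cpm in the control and 2.43 and 2.38 cpm with DY131. ATP5B, the beta subunit of ATP synthase, differed by -0.01 (-0.14 to 0.11).

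The remaining lists are read against the same 5.49%. Of 28 tested HOX genes, HOXB8 and HOXB9 were called (7.14%), both lower with DY131, with a median of -0.31 over the list. HOXB9 was at 82.4 and 90.7 cpm with Esrrb and at 41.3 and 30.4 cpm with DY131. Of 20 tested NRF2 target genes, the aldo-keto reductases AKR1B10 and AKR1C3 were called lower (10%), and FTL, the ferritin light chain, was at 2167 and 1980 cpm with Esrrb and at 1167 and 1283 cpm with DY131. AKR1B10 lost the call with DESeq2 and with the length and GC correction. CYP1A1 was the 1 call among 10 targets of the aryl hydrocarbon receptor (10%), at 3.56 and 4.23 cpm against 1.59 and 2.08 cpm with DY131. With the length and GC correction its difference was -0.999, just short of the threshold. Of 18 tested cytokines and chemokines, CSF2 was called higher and TNFSF10 lower (11.1% together), each at under 3 cpm in the higher arm. With DESeq2, CSF2 had a log2 difference of 3.47 but no adjusted p, so it was not called there. Among 12 genes of aldehyde oxidation and of purine and pyrimidine breakdown, XDH, the xanthine dehydrogenase related to AOX1, was called higher (8.33% of the list), at 3.36 and 2.38 cpm with DY131 against 1.02 and 0.735 cpm with Esrrb. AOX1 was the 1 member of any list here that was brought to the same level.

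**Figure D5:**
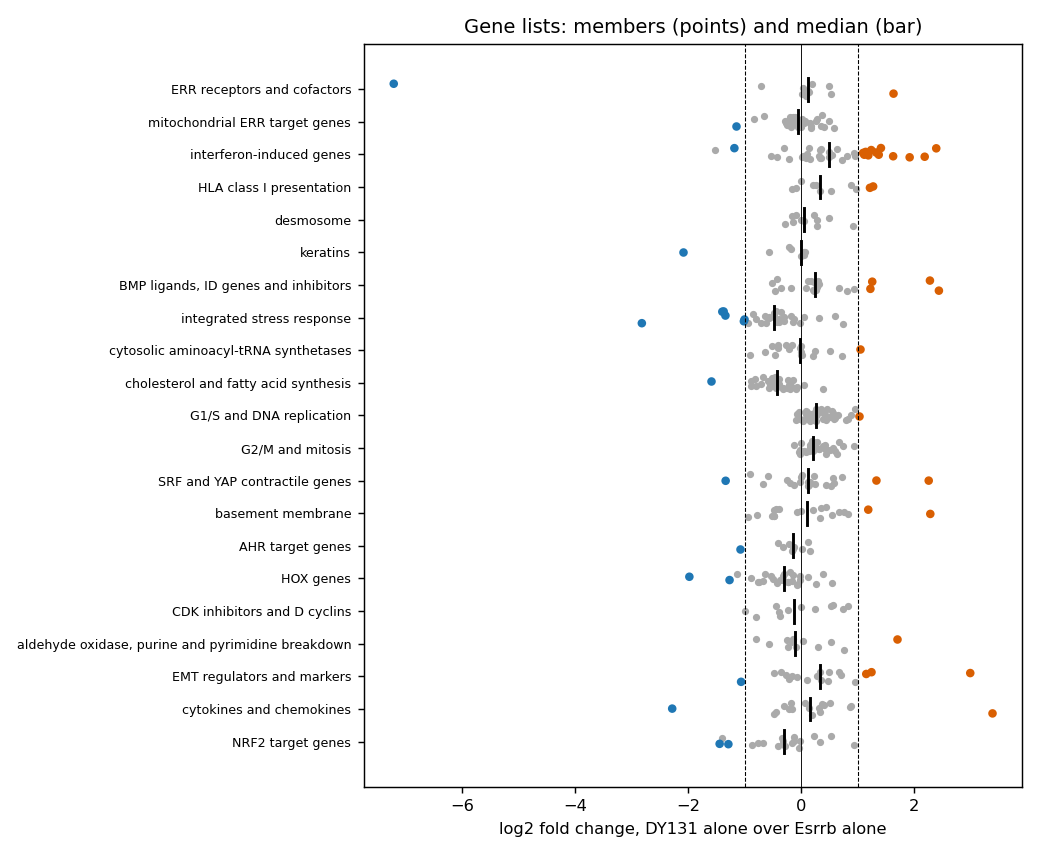
Direct log2 difference, DY131 alone over Esrrb alone (x axis), of each tested member of 21 gene lists (y axis), with called members in orange (higher) or blue (lower), other members in grey and a black bar at the list's median. Interferon-induced genes have a median of 0.50 and 12 members past 1, while the integrated stress response and cholesterol lists lie to the left of 0 with medians of -0.48 and -0.42.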

How the data were processed

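RNA of 2 biological replicates per group was sequenced as 50-base single reads from poly-A stranded libraries, with all samples in 1 lane. Before deposit, the authors cleaned reads with the FASTX-Toolkit, used TopHat2 for mapping to hg18, and tabulated gene counts in MULTICOM-MAP. The deposited counts are raw whole numbers, 1 column per library. How reads that map to several genes were treated is not given in the sources used here. Libraries held 7858743 to 11551690 counted reads. Intervals and floors from counts cover counting error only, because PCR copies could not be told from separate molecules.

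Counts were tested in R 4.3.3 with edgeR 4.0.16 (TMM scaling, quasi-likelihood F test, Benjamini-Hochberg adjustment over 13856 genes), with all 8 libraries in 1 model of 4 group means. Levels are cpm on effective library sizes. The 95% intervals use the Wald standard error of that fit. The fit shares the spread of a gene across the groups, while the DY131 replicates lay farther apart than the others. Intervals and p-values of comparisons with DY131 can therefore be too narrow. Calls needed adjusted p below 0.05 and at least 2-fold (1 on the log2 scale). The study's exact test and DESeq2 1.42.0 were alternatives, with other scaling, filters, thresholds, libraries, a replicate block and, chosen after seeing the data, a correction for length and GC content in bins. Limma 3.58.1 was loaded with edgeR. On simulated counts of 13391 genes for the direct comparison, 194 of 200 changed genes were recovered with 0 false calls, and 95.4% of intervals held the true value. The planted changes were all larger than 2-fold, and every gene and group had the same spread. Smaller changes and the wider spread of the DY131 replicates were therefore not covered. With a simulated GC bias over 13163 genes, false calls fell from 1345 to 0 with the correction. That bias was set from the GC values that the correction itself uses. The fall was therefore fixed in advance and says nothing about the real libraries.

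Named genes are AOX1, DSG3, BMP4 and ESRRB, the 10 largest rises and falls with at least 5 cpm in the higher group, the genes called in the same direction in both arms, the study's qPCR genes and the called or most expressed members of the lists. Genes beyond these were chosen after their values were seen. The members and lists were chosen with earlier results of these data known. Positions and shared 50-base windows come from GENCODE 29, in which 98.2% of tested genes were matched, and promoters from RefSeq. Nearness to the control was taken on log2(cpm + 0.1). Figures were drawn with Python 3.11.15 and matplotlib 3.10.9. A few genes are not reported here.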

Additional observations from a re-analysis of the deposited data

How the results depend on the processing

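The direct comparison called 448 genes with at least 10 counts in every library, 5959 with no fold threshold and 94 when tested against a 2-fold difference, and 595 to 878 with 1 library left out. Under its other settings it called 531 (DESeq2) to 848 (no filter). Esrrb against the control gave 48 with DESeq2, 43 with at least 10 counts, 578 with no fold threshold, 17 against a 2-fold difference and 46 to 51 with 1 library left out. DY131 against the control gave 315 with at least 10 counts, 5185 with no fold threshold and 34 against a 2-fold difference. Genes at the same level numbered 4 with at least 10 counts, 1 with an interval within 0.5, 144 with no fold threshold against the control and 2 to 7 with 1 library left out. The cause of these shifts was not tested. Where 1 library was left out, the lone library of its group was assumed to vary like the other groups.

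All 76 named genes that were called kept their direction in every setting run, and 109 of their values lost the call. Differences close to 0 changed sign. With the length and GC correction, DUOXA1 was at 0.038 and ATP5B at 0.029. With 1 library left out, the log2 differences ranged from -0.703 to 0.295 for AOX1, from -1.123 to 0.217 for DSG3, from -0.313 to 0.131 for PADI2, from -0.532 to 1.528 for CYP4F3, from -0.435 to 0.306 for CAND2 and from -0.033 to 0.920 for RSAD2. They ranged from -0.528 to 0.204 for DUOXA1, from -0.399 to 0.013 for SH3RF3, from -0.765 to 0.520 for CXCR4, from -0.342 to 0.699 for UNC5A, from -0.040 to 0.019 for ATP5B, from -0.311 to 0.098 for B2M, from -0.149 to 0.235 for KRT8 and from -0.170 to 0.536 for COL1A1.

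Same-numbered libraries deviated together with correlations of 0.11 (control and Esrrb), 0.02 (control and DY131) and -0.07 (Esrrb and DY131), so the numbers were not taken to pair the samples. In the 6 libraries with a number, the replicate block gave 729 genes against 739 without it in the direct comparison, 66 against 68 for Esrrb, 542 against 553 for DY131 and 6 against 5 genes at the same level. With 2 libraries per group, genes under 1 cpm had too few reads for a difference of 2-fold to be read.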
